A study of Mus musculus with 8 samples.

Results

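Molecular chaperones hold proteins in a form that can fold, and protein disulfide isomerases form and rearrange the bonds between cysteines in the endoplasmic reticulum (ER), where secreted and membrane proteins are made. The cytosol, the ER and the mitochondria each have their own set of HSP90, HSP70 and J-domain proteins. Heat shock factors drive many cytosolic chaperone genes, while ER chaperone genes answer to the unfolded protein response. Its sensors are IRE1, PERK and ATF6, and XBP1, ATF4 and DDIT3 are among its transcription factors. The uterine epithelium is a secretory lining and uses the ER folding machinery heavily.

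The genes described here are those whose symbol in the deposited tables begins with Hsp90, Hspa, Hspb, Hspd, Hspe or Hsph followed by a digit, Dnaja, Dnajb or Dnajc followed by a digit, or Pdia followed by a digit, pseudogene names left out, together with the ER lectin genes Calr and Canx, the unfolded protein response genes Xbp1, Ddit3 and Atf4, and the ER membrane gene Herpud1. They are 83 of the 24346 gene symbols in the files. By the compartment in which their products are known to work, 40 are cytosolic, 23 belong to the ER, 10 to mitochondria and 3 are transcription factors of the unfolded protein response, and 7 act elsewhere or have no clear place. The samples were uterine epithelium of mice on a mixed C57BL/6/129S6/SvEv background, as 3 control libraries and 5 Smad2/3 cKO libraries. In the cKO mice a Cre knocked into the progesterone receptor locus (Pgr-cre) recombined floxed alleles of Smad2 (exons 9 and 10) and Smad3 (exons 2 and 3). Per the labels this Cre is active after birth not only in the uterus but also in ovary, oviduct, mammary gland and pituitary. The sources used here do not give ages, the floxed or Cre alleles of the controls, or whether each library is a separate animal. The p-values therefore reflect variation among these 8 libraries, part of which may be technical.

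Levels are FPKM, fragments normalized to transcript length and to mapped fragments per library, summed over the transcripts of a gene and put on 1 scale between libraries (scaled FPKM). A gene was called changed where limma, fitted over the 11315 genes that reached a scaled FPKM of 1 in 3 or more libraries, gave a Benjamini-Hochberg adjusted p below 0.05. Fold changes are log2(scaled FPKM + 1) in cKO minus control, with the standard error of the fit. Estimated depth lay between 42.9 and 53.9 M mapped fragments per library. Smad2 was lower in every cKO library (3.03 to 4.02 scaled FPKM) than in any control (5.69 to 6.35; log2 fold change -0.63 ± 0.10, limma adjusted p = 0.00551), while Smad3 did not pass (0.08 ± 0.22, adjusted p = 0.837). All 12 epithelial markers were detected, with summed levels of 5863 to 6387 scaled FPKM in control and 4857 to 7682 in cKO. Control 1 stood apart from controls 2 and 3 in smooth muscle markers (summed level 382 against 67.05 and 113) and immediate early genes (1597 against 910 and 823). In bulk tissue, fewer cells of a type and less RNA per cell cannot be told apart.

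Chaperone and isomerase genes as a whole changed about as often as other genes. Of the 64 members that could be tested, 5 were called higher and 3 lower in cKO, which is 12.5% of them, where 14.3% of all tested genes were called (7.27% higher and 6.98% lower). The called genes were Xbp1, Herpud1, Hspb1, Dnajc15 and Hspe1, all higher, and Hsph1, Dnajb5 and Dnajc30, all lower. For 7 of these 8 the groups did not overlap, and the exception was Xbp1. Over all 64 tested members the groups did not overlap for 5 that were higher and 8 that were lower in cKO. Of all tested genes 11.7% were higher and 12.9% lower without overlap. The 21 tested ER members had a median log2 fold change of 0.58 and 19 of them were above 0, with only Herpud1 called. No test of a difference between compartments was made. The 27 tested cytosolic members had a median of -0.09, with 11 above 0, against a median of -0.005 and 49.4% above 0 over all tested genes.

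**Figure D1:**
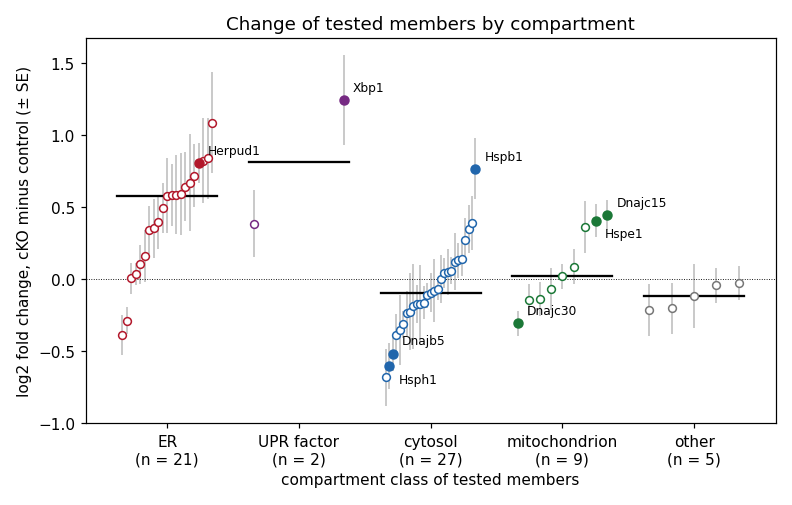
Log2 fold change of each tested member, cKO minus control on the log2(scaled FPKM + 1) scale, by compartment, with the standard error as a bar; filled points are called (limma adjusted p below 0.05) and the black line is the class median. The ER median lies at 0.58 and the cytosolic median at -0.09, and the 8 called genes are spread over 4 of the 5 classes.

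Xbp1 encodes the transcription factor made active when IRE1 cuts a short segment out of its mRNA, and it had the largest log2 fold change among the tested members. Its level was 179, 105 and 78.5 scaled FPKM in the 3 controls, in order, and 258, 288, 175, 274 and 413 in cKO 1 to 5. Control 1 lay just above cKO 3, and the other 4 cKO libraries lay above every control. The group means were 281.6 ± 85.7 (SD, n = 5) and 121 ± 52.1 (SD, n = 3), which differed by 1.24 ± 0.31 on the log2 scale (limma adjusted p = 0.0319). That call was lost in 10 of 22 alternative analyses, where the adjusted p ranged from 0.00466 to 0.14. The adjusted p was 0.132 when control 2 was left out and 0.14 when control 3 was. The files list both mRNA forms of Xbp1 (chromosome 11, 5520641 to 5525993, mm10), which differ by 26 bases. The longer form held all the signal in all 8 libraries, and the shorter, IRE1-processed form was listed at 0 in each, with the upper bound of its deposited interval at 0.0209 FPKM or less. A listed 0 can be an estimate that failed between near-identical forms, so no share of processed Xbp1 mRNA was computed.

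Herpud1, which encodes an ER membrane protein of the degradation machinery and a known target of the unfolded protein response, kept its call in more alternative analyses than the other called members. It read 34.2, 32.1 and 31.0 scaled FPKM in the 3 controls, in order, and 60.1, 58.1, 45.0, 55.2 and 72.3 in cKO 1 to 5. The controls sat close together and every cKO library lay above them. The means were 32.4 ± 1.65 (SD, n = 3) and 58.1 ± 9.82 (SD, n = 5), 0.81 ± 0.14 apart on the log2 scale (limma adjusted p = 0.00829). The call held in 20 of 22 alternatives and was lost without control 3 (log2 fold change 0.777, adjusted p = 0.0529) and when stromal and muscle marker levels entered the model (0.7336, adjusted p = 0.0512).

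Of the other transcription factors of the response among the members, Atf4 did not pass and Ddit3 was not tested. Atf4, translated when PERK or another eIF2-alpha kinase is active, was at 155.7, 128.5 and 117 scaled FPKM in controls and 281, 187, 136, 146 and 152 in cKO 1 to 5 (log2 fold change 0.39 ± 0.23, limma adjusted p = 0.2885). Its high values were those of cKO 1 and cKO 2, the libraries whose titles belong to another number series than the other 6. Ddit3, which encodes the pro-apoptotic factor CHOP, was listed at 0 in 7 libraries and at 14.3 scaled FPKM in cKO 2. A listed 0 can be a failed estimate. The Ddit3 locus overlaps that of Mars, a methionyl-tRNA synthetase gene, and no fold or test is given for Ddit3.

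The large ER chaperones and isomerases were higher on average in cKO, but control 1 reached into the cKO range. Of the 9 tested ER members that are neither J proteins nor Herpud1, limma called 0. Among these 9, 5 had an unadjusted p below 0.05, as did 31.5% of all tested genes. Hspa5, the ER HSP70 known as BiP, was at 374.5, 209.5 and 177 scaled FPKM in the 3 controls, in order, and 439, 408.5, 240.1, 620.5 and 307 in cKO 1 to 5. Control 1 exceeded cKO 3 and cKO 5, while controls 2 and 3 were below every cKO library. The log2 fold change of Hspa5 was 0.67 ± 0.34 (limma adjusted p = 0.206). Hsp90b1, the ER HSP90 (GRP94), showed the same order of controls, at 337, 180.3 and 142 against 530, 402, 388, 715 and 270.2 in the cKO libraries. The log2 fold change of Hsp90b1 was 1.09 ± 0.35 (adjusted p = 0.0747). Without control 1 it was called (1.445, adjusted p = 0.0401), and members then numbered 3 higher and 1 lower, where 5.19% of tested genes were higher and 3.94% lower. Hspa13, a small HSP70-like ATPase of the microsomes, was low at 5.88 ± 1.14 against 7.94 ± 2.46 and did not pass (adjusted p = 0.269).

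Calr and Canx encode calreticulin and calnexin, the lectins that hold sugar-bearing proteins during folding. Calr was the most abundant ER member, at 833, 541.5 and 469.8 scaled FPKM in the 3 controls, in order, and 1068, 854, 689, 1256 and 714 in cKO 1 to 5. Here too control 1 lay among the cKO values. The log2 fold changes were 0.58 ± 0.26 for Calr (adjusted p = 0.168) and 0.496 ± 0.18 for Canx (adjusted p = 0.0955).

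All 4 detected protein disulfide isomerase genes had positive log2 fold changes, between 0.58 and 0.84, and none passed. An unadjusted p below 0.05 was seen in 3 of the 4 and in 31.5% of all tested genes. Pdia3, which works with the lectins, was at 443, 293 and 297 in controls and 622, 486, 399, 644 and 431.5 scaled FPKM in cKO (0.58 ± 0.22, adjusted p = 0.1055). Pdia4 went from 86.2 ± 26.3 to 132.6 ± 45.9 and Pdia5 from 15.5 ± 5.42 to 28.5 ± 8.87. Pdia6, which also dampens IRE1 activity, was at 271, 148 and 163 in controls and 455, 322, 251.3, 461 and 252 in cKO (log2 fold change 0.84 ± 0.28, limma adjusted p = 0.0815). In each of the 4 genes control 1 was the highest control. The pancreatic isomerase gene Pdia2 did not exceed 0.0508 scaled FPKM in any library.

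The genes for J-domain proteins of the ER, which stimulate HSP70 ATPases, mostly had positive log2 fold changes. Of 11 tested, 9 were above 0 and limma called 0 (median 0.16, range -0.39 to 0.72). Dnajb11, the main luminal partner of BiP, was at 46.5, 35.0 and 30.9 scaled FPKM in controls and 65.6, 52.3, 52.3, 93.8 and 51.5 in cKO 1 to 5, with no overlap (log2 fold change 0.72 ± 0.22, limma adjusted p = 0.062). It was 1 of only 2 ER members, with Herpud1, whose cKO values all exceeded the controls, a pattern found in 11.7% of all tested genes. Dnajc3, a luminal co-chaperone that also inhibits PERK, was at 18.7 ± 5.90 against 29.8 ± 8.59 and did not pass (adjusted p = 0.108). Dnajb9, a luminal repressor of IRE1, was at 20.1 ± 4.03 against 31.7 ± 8.96 (adjusted p = 0.175). Dnajb12 and Dnajc16 were lower in every cKO library than in any control, as were 12.9% of tested genes. Dnajb12, anchored in the ER membrane with its J domain in the cytosol, was at 20.6, 20.1 and 18.1 in controls and 14.1 to 17.4 in cKO (log2 fold change -0.29 ± 0.09, adjusted p = 0.0711). Dnajc16 was at 5.93 to 6.27 in controls and 3.24 to 5.36 in cKO (adjusted p = 0.0986). Dnajc14 and Dnajb14 had log2 fold changes of 0.04 and 0.005. Dnajb11, Dnajc3, Dnajb9, Dnajb12, Dnajc16, Dnajc14 and Dnajb14, as well as Hspa13 above, fall outside the rule for named genes and were chosen after their values were seen.

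The promoters of these ER genes are shown because they carry short matches to the elements through which ATF6 and XBP1 are known to act. Promoter windows from RefSeq (GRCm38.p6, the mm10 assembly), 300 bases from 250 before the start site, were found for 69 of the 83 members. The ER stress element, CCAAT followed after 9 bases by CCACG, was searched on both strands. It occurs in the windows of 6 of 20 ER members (Hspa5, Hsp90b1, Calr, Canx, Pdia6 and Dnajc3), of 0 of 32 cytosolic and 0 of 7 mitochondrial members, and of 37 of 27025 genes in all (0.137%). ER stress element II, ATTGG followed after 1 base by CCACG, occurs in Herpud1 and Dnajb11 and in 12 of 27025 genes (0.0444%). These 8 genes had log2 fold changes of 0.496 to 1.09, and only Herpud1 was called. Tested ER members with no match found to either element ranged from -0.39 (Dnajc16) to 0.825 (Pdia5), with Pdia3, Pdia4 and Dnajb9 at 0.58 to 0.59. Xbp1, also with no match found, had 1.24. A link between the elements and the fold changes was not tested. A match is a stretch of letters and not evidence of binding. In the windows below, each read 5′ to 3′ on the strand of the gene, capitals mark the matches, and in Herpud1 also the amino acid response element TTGCATCA, which occurs in 1.03% of genes.
Hspa5, chr2:34771840-34772139, plus strand: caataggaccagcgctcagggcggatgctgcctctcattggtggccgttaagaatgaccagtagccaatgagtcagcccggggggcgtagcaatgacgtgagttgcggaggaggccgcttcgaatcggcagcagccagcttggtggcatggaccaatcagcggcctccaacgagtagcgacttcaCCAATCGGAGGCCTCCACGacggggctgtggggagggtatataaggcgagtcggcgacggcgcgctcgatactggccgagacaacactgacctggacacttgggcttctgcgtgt
Hsp90b1, chr10:86705395-86705694, minus strand: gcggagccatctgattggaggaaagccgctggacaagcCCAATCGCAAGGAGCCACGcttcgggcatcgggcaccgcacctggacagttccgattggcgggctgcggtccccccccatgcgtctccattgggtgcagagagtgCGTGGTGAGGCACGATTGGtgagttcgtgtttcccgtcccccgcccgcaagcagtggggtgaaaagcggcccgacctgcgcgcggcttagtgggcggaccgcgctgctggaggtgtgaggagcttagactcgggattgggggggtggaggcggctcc
Pdia6, chr12:17266339-17266638, plus strand: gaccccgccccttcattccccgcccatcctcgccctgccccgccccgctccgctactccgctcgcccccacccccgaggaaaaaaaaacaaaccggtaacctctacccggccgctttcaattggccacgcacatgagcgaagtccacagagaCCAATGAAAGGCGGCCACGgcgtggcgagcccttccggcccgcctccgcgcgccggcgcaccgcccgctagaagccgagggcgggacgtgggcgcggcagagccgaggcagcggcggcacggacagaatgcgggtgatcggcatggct
Herpud1, chr8:94386179-94386478, plus strand: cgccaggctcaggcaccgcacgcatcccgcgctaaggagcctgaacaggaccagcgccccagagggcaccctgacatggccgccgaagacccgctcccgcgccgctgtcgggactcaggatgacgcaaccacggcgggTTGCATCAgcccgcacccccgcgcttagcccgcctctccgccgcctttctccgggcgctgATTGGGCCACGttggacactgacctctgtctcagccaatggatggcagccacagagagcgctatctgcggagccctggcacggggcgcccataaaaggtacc
Dnajb11, chr16:22857595-22857894, plus strand: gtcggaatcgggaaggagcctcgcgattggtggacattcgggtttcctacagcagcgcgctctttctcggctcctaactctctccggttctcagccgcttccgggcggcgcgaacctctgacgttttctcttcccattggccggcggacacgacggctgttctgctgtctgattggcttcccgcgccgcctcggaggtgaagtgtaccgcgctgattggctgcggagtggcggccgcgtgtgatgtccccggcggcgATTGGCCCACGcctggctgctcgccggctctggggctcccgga

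Relative to the start site counted as 0, the match lies at -65 to -47 in Hspa5, -98 to -80 in Pdia6 and -52 to -42 in Herpud1. In Hsp90b1 there are 2, at -212 to -194 and -107 to -89, the second on the opposite strand. In Dnajb11 it falls just after the start, at 7 to 17. Calr, Canx and Dnajc3 hold it at -162 to -144, -145 to -127 and -105 to -87.

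**Figure D2:**
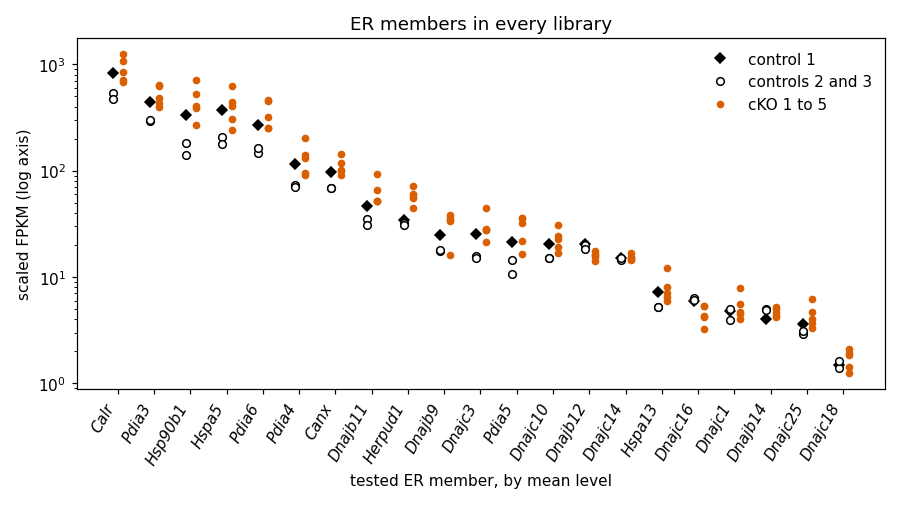
Scaled FPKM (log axis) of the 21 tested ER members in each library, ordered by mean level, with control 1 as a filled diamond, controls 2 and 3 as open circles and the 5 cKO libraries in orange. Control 1 lies above controls 2 and 3 for 17 of the 21 genes and above at least 1 cKO library for 18.

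Across libraries the ER members shared an order. Control 1 was the highest control for 17 of 21, and cKO 4 the highest cKO library for 13. Over all 3 controls, 2 of 21 ER members were higher in cKO without overlap, near the 11.7% of all tested genes. At an unadjusted p below 0.05 there were 8 higher and 2 lower ER members among the 21. Of all tested genes 15.9% were higher at that level, and 31.5% reached it in either direction. A log2 fold change of at least 0.5 was seen in 11 of the 21 and in 11.8% of all tested genes. Weighting the libraries by their estimated quality (array weights) called 13 ER members higher, but also 1793 of all 11315 genes, where the unweighted fit called 823. Without control 1 limma called 2 ER members and 581 genes in all higher, and without control 3 it called 0 ER members and 242 genes. The median log2 fold change of the ER members stayed between 0.37 and 0.74 in the 22 alternatives, and it was 0.52 without cKO 1 and cKO 2.

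**Figure D3:**
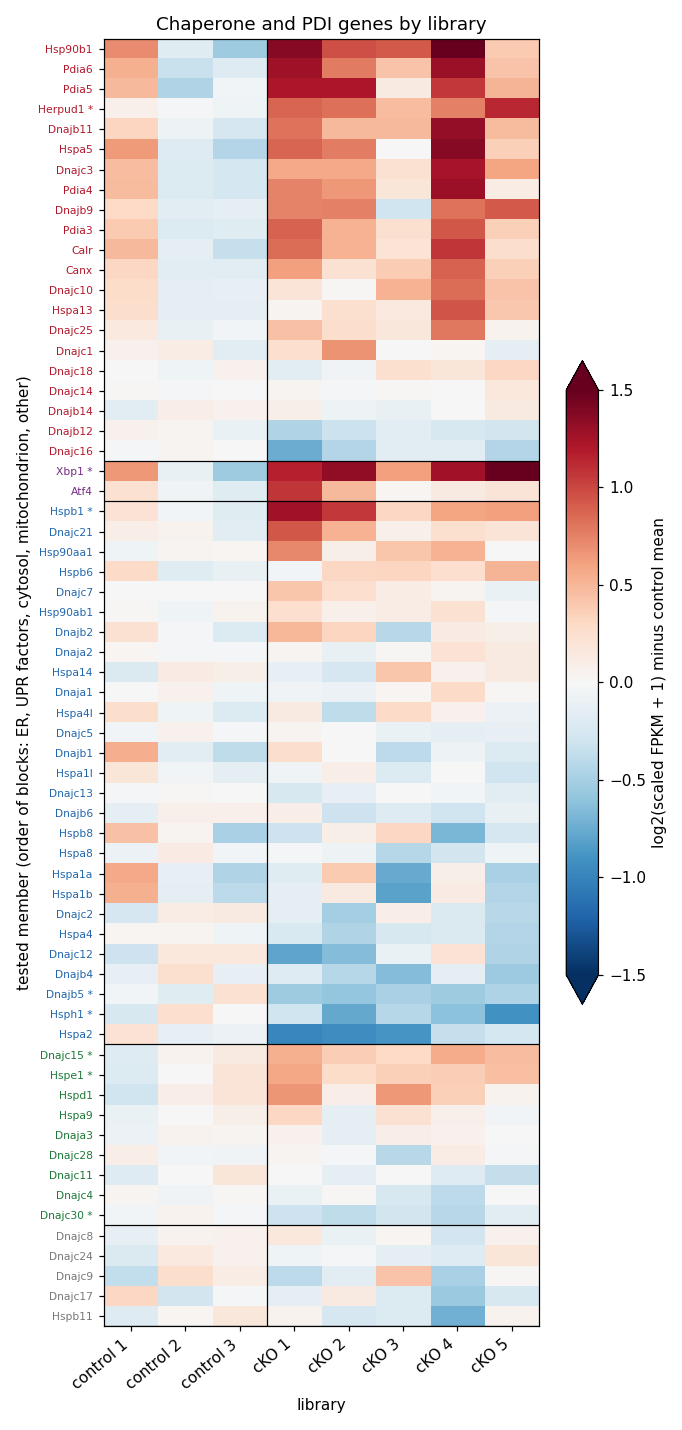
Level of the 64 tested members in each library as log2(scaled FPKM + 1) minus the control mean, in blocks by compartment, with red above and blue below the control mean and an asterisk on the 8 called genes. Of the 21 ER rows, 15 to 18 lie above the control mean in each cKO library and 18 in control 1, while of the 27 cytosolic rows 7 to 14 do in each cKO library.

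Set against the cytosolic members of the same library, the ER members were more abundant in cKO on average, with control 1 inside the cKO range. The summed level of the 23 ER members was 2706, 1700.0 and 1570.0 scaled FPKM in the 3 controls, in order, and 3670.0, 2980.0, 2397, 4401 and 2459 in cKO 1 to 5. That of the 40 cytosolic members stayed between 1410.0 and 1666 in all 8 libraries. Most of the cytosolic sum came from Hsp90ab1 and Hspa8, with means of 651 and 361 over the 8 libraries. The ratio of the sums does not depend on the scaling of libraries. It was 1.76, 1.12 and 1.06 in controls and 2.20, 1.97, 1.70, 2.83 and 1.73 in cKO, with means of 1.315 ± 0.389 (SD, n = 3) and 2.09 ± 0.462 (SD, n = 5). The ratio of control 1 exceeded those of cKO 3 and cKO 5. A measure that weights genes equally is the median log2 deviation from the control mean of tested ER members, minus that of cytosolic members. It was 0.287, -0.158 and -0.074 in controls and 0.667, 0.594, 0.277, 0.845 and 0.473 in cKO 1 to 5. By it control 1 exceeded only cKO 3 among the cKO libraries. No test was made of these summaries over the members.

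Summed levels of markers of other cell types are given beside these sums, and their part in the ER levels was not tested. Of 9 plasma cell markers 2 reached 1 scaled FPKM in 3 or more libraries, and Tnfrsf17, Pou2af1 and Irf4 were under 0.1 in all 8. Those 2 were Cd79b, at 4.28 to 6.01 in control and 4.80 to 9.70 in cKO, and Prdm1, at 1.61 to 2.36 and 1.40 to 5.24. Mzb1 was at 0 to 0.199 in control and 0.0725 to 0.402 in cKO, highest in cKO 2. Cd79b was the largest part of the plasma cell sum in every library. That sum was 6.73, 8.603 and 6.31 in the controls and 6.90, 10.3, 12.6, 6.41 and 15.03 in cKO 1 to 5. It was highest in cKO 5, which also had the highest Xbp1, Herpud1 and Dnajb9, and lowest among cKO libraries in cKO 4, which had the highest ER sum. The neutrophil sum over 9 markers was 219.9 to 430.4 in control and 323 to 2032 in cKO. The leukocyte sum over 11 markers was 131 to 185.5 and 102 to 250.6, with Cd68 the largest part of it in every library. Cd68 was at 80.7 to 118 in control and 52.1 to 101 in cKO, while Ptprc was at 1.55 to 2.83 and 3.03 to 10.2. In the mean of log2(scaled FPKM + 1) over the 11 markers, controls were at 2.31 to 2.74 and cKO libraries at 2.26 to 3.31. The sums of endothelial markers were 10.9 or less in every library. The summed stromal level over 14 markers was 128 to 287 in control and 64.3 to 281 in cKO, highest in control 1. When stromal and muscle marker levels entered the model, limma called 358 genes higher and 304 lower, 0 members among them, and the ER median was 0.62.

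**Figure D4:**
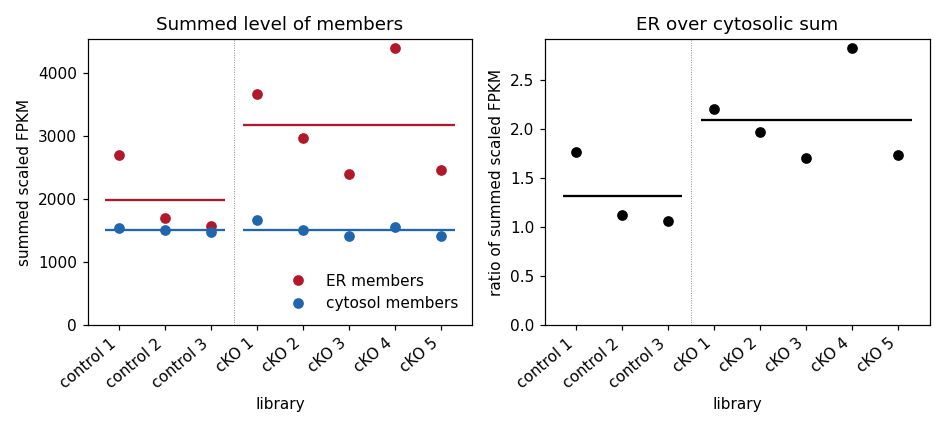
Summed scaled FPKM of the ER and cytosolic members in each library (left) and the ratio of the sums (right), with the group mean as a line. The cytosolic sum stays between 1410.0 and 1666 while the ER sum runs from 1570.0 to 4401.

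Cytosolic chaperones serve proteins made on free ribosomes. Of the 27 tested cytosolic members 1 was called higher and 2 lower (11.1%, against 14.3% of all tested genes). Without overlap of the groups, 1 was higher and 5 were lower, where 11.7% and 12.9% of all tested genes were. The most abundant, Hsp90ab1 and the constitutive HSP70 gene Hspa8, did not pass. Hsp90ab1 was at 621, 585 and 635 scaled FPKM in controls and 605 to 732 in cKO (log2 fold change 0.13 ± 0.12, limma adjusted p = 0.494), turning to -0.20 with quantile normalization and -0.08 with TPM. Hspa8 was at 366, 423 and 375 in controls and 287 to 380 in cKO (-0.175 ± 0.13, adjusted p = 0.3895). Hsp90aa1, the stress-inducible form of HSP90, was at 35.0 to 37.8 and 36.5 to 61.3 (0.35 ± 0.17, adjusted p = 0.188). Hspa4, a nucleotide exchange factor for HSP70, was at 63.4, 63.7 and 59.4 in controls and 45.2 to 53.4 in cKO. The groups of Hspa4 did not overlap, but it did not pass (log2 fold change -0.315 ± 0.095, adjusted p = 0.0594). Hspa2, chosen after its values were seen, was likewise below all controls in every cKO library (4.33 to 5.71 against 1.94 to 3.84; adjusted p = 0.0523).

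Hsph1 encodes HSP110, another HSP70 exchange factor and a typical heat shock gene, and it fell in cKO. It was at 19.0, 27.0 and 22.5 scaled FPKM in the 3 controls, in order, and 18.2, 12.9, 16.6, 14.4 and 11.6 in cKO 1 to 5. The lowest control lay just above the highest cKO library. The log2 fold change was -0.60 ± 0.16 (limma adjusted p = 0.0404). This call was lost in 10 of 22 alternatives, among them without control 2 (-0.48, adjusted p = 0.184) and without control 3 (adjusted p = 0.133). Dnajb5, a J protein of the same family branch as Dnajb1, fell from 1.95, 1.68 and 2.57 to between 1.04 and 1.20 scaled FPKM (log2 fold change -0.52 ± 0.12, adjusted p = 0.0257). All its cKO values were close to the filter of 1, and its call was lost in 7 of 21 alternatives.

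Hspb1, the small heat shock protein HSP27, rose. It was at 13.1, 10.8 and 9.72 scaled FPKM in controls and 28.1, 24.4, 14.1, 17.2 and 17.7 in cKO 1 to 5, with no overlap but only a narrow gap between control 1 and cKO 3. The log2 fold change was 0.77 ± 0.21 (limma adjusted p = 0.0453), and 0.51 without cKO 1 and cKO 2, where it did not pass (adjusted p = 0.0661). It was lost in 12 of 22 alternatives. Hspb1 is also expressed in smooth muscle, whose markers had summed levels of 382, 67.05 and 113 in the controls and 118, 18.1, 127, 61.7 and 65.2 in cKO 1 to 5. When stromal and muscle marker levels entered the model, its log2 fold change was 0.72 (adjusted p = 0.1536). Of the other small heat shock genes, Hspb6 and Hspb8 were tested and did not pass, and Hspb2, Hspb3, Hspb7 and Hspb9 stayed under the filter.

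The inducible HSP70 genes Hspa1a and Hspa1b are near-identical neighbours on chromosome 17, so reads may be divided between them arbitrarily. Hspa1b was at 86.5, 54.1 and 44.9 in controls and 54.0, 65.5, 33.6, 65.0 and 43.5 scaled FPKM in cKO, and Hspa1a at 41.0, 25.1 and 19.7 against 23.9, 36.0, 15.8, 29.2 and 19.1. Both were highest in control 1 and neither passed (adjusted p = 0.593 and 0.692). Their log2 fold changes, -0.23 and -0.19, turned to 0.04 and 0.10 without control 1. The immediate early sum was likewise higher in control 1 (1597) than in controls 2 and 3. It was 1795 in cKO 1, 1728 in cKO 2 and 932 to 1109 in the other cKO libraries. Ier3 held a large part of it, at 720 in control 1, 1193 in cKO 1 and 1044 in cKO 2. The mean log2 level of the 12 markers was highest in control 1, at 6.175. It was 4.97 and 4.91 in controls 2 and 3, 5.60 in cKO 1, 5.88 in cKO 2 and 4.86 to 5.135 in the other cKO libraries. With this mean level as a term, an alternative chosen after seeing the data, the log2 fold changes of Hspa1b and Hspa1a were -0.20 and -0.16.

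Of 9 tested mitochondrial members 2 were called higher and 1 lower, where 14.3% of all tested genes were called, and 0 were called without scaling, with title series as a term, or when any 1 of the controls was left out. Hspe1, the HSP10 lid of the mitochondrial chaperonin, was at 28.0, 32.6 and 37.0 scaled FPKM in controls and 49.0, 39.4, 41.7, 42.0 and 44.5 in cKO 1 to 5 (log2 fold change 0.41 ± 0.11, limma adjusted p = 0.0453). No value overlapped, yet the call was lost in 16 of 22 alternatives. Its partner Hspd1, the HSP60 barrel, did not pass, at 29.9, 39.8 and 42.3 against 58.8, 39.8, 58.3, 47.7 and 38.2 (0.36 ± 0.18, adjusted p = 0.206). Dnajc15, a J protein of the inner membrane import motor, was at 24.8, 29.6 and 31.4 in controls and 35.4 to 42.3 in cKO (0.45 ± 0.11, adjusted p = 0.0266; lost in 12 of 22). Dnajc30 fell from 13.1, 14.0 and 13.3 to between 9.87 and 11.96 (-0.31 ± 0.09, adjusted p = 0.0457; lost in 13 of 22), and its locus overlaps that of Wbscr22. Hspa9, the mitochondrial HSP70 mortalin, did not pass, at 79.7 ± 5.1 against 85.03 ± 10.95 (adjusted p = 0.664), and its log2 fold change of 0.085 became -0.12 with TPM and with quantile normalization. Mitosis markers, which differ widely between the cKO libraries, had a summed level of 9.69 to 14.5 in control and 11.0 to 325 in cKO. With their level as a term the calls were lost while the log2 fold changes stayed close, at 0.406 for Hspe1 (adjusted p = 0.125), 0.4658 for Dnajc15 (0.0778) and -0.3243 for Dnajc30 (0.1051).

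**Figure D5:**
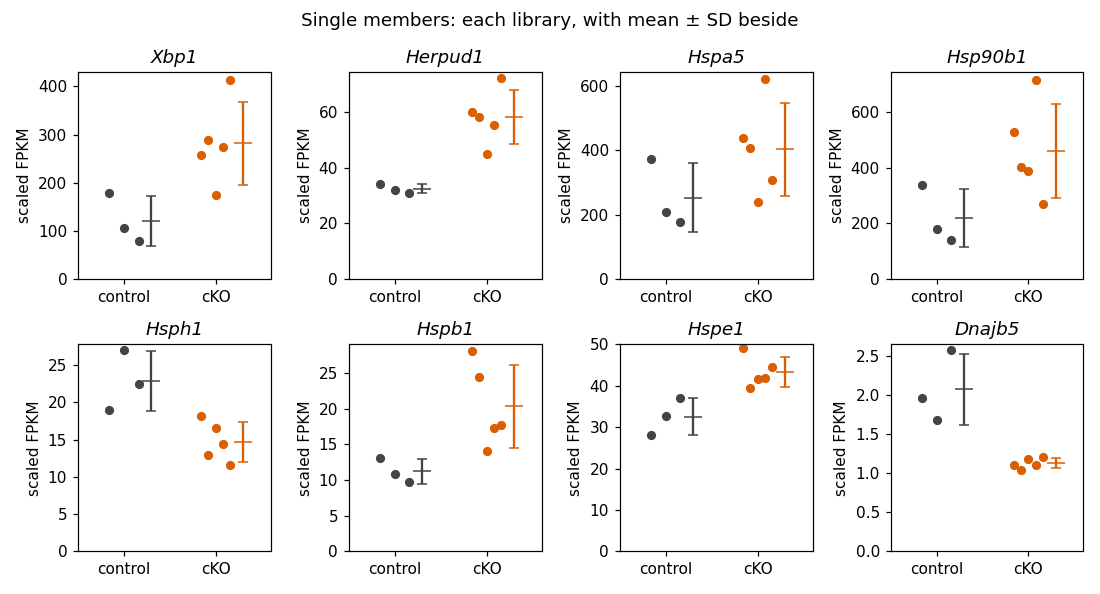
Scaled FPKM of 8 members in each library, with the group mean ± SD beside the points (control n = 3, cKO n = 5). Herpud1, Hspb1, Hspe1, Hsph1 and Dnajb5 show no overlap between groups, whereas control 1 reaches the cKO range for Xbp1, Hspa5 and Hsp90b1.

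The window before Hspe1 is shown because it holds the heat shock element (GAA, 2 bases, TTC, 2 bases, GAA, searched on both strands), as does that of Hsph1, and the pair moved in opposite directions. The element occurs in 179 of 27025 genes (0.662%), and among members in Hspe1, Hspd1, Hsph1 and Dnajb6. Hspe1 and Hspd1 stand head to head on chromosome 1 and their windows cover mostly the same bases, so theirs is 1 match region and not 2. The 2 overlapping matches lie at -89 to -72 in Hspe1, and that of Hsph1 lies after the start, at 15 to 27 or, from a second listed start, at 36 to 48.
Hspe1, chr1:55087898-55088197, plus strand: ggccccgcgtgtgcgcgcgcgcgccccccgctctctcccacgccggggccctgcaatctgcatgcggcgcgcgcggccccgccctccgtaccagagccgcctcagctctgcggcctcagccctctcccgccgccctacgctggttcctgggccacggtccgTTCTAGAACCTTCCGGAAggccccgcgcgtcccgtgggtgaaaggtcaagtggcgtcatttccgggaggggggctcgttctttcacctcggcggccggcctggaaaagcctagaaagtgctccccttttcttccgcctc
Hsph1, chr5:149636266-149636565, minus strand: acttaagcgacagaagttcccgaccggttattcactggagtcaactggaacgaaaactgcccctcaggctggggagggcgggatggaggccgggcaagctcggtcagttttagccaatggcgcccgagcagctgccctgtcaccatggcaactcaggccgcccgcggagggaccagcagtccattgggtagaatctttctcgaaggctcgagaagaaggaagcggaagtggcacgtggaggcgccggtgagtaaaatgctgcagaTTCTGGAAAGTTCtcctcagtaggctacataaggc

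The 5 tested members that act elsewhere or have no clear place all had log2 fold changes below 0, between -0.22 and -0.03, and none passed. They were Dnajc8, a spliceosome-associated J protein, Dnajc9, a histone co-chaperone, Dnajc17, Dnajc24 and the cilium gene Hspb11. Of the 19 members that were not tested, 18 never exceeded 1.3 scaled FPKM, and the exception was Ddit3. Among them 5 were listed at 0 in all 8 libraries (Dnajc19, Hspb2, Hspb3, Dnajc5b and Dnajc5g). Dnajc19 encodes a subunit of the mitochondrial import motor and its locus overlaps that of Fxr1. A listed 0 can be a failed estimate, so it is not read as absence. Hspb2 shares its locus with Cryab.

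Other genes of the same pathways, from lists of 143 genes, were called higher in 8 and lower in 4 of 132 tested cases (9.09%, against 14.3% of all tested genes). ER folding genes had 5 higher and 1 lower of 30 tested, with a median log2 fold change of 0.36. Agr2, an isomerase of mucus-producing cells, rose from 1.89 ± 0.648 to 8.40 ± 1.84 scaled FPKM (log2 fold change 1.70 ± 0.19, adjusted p = 0.00142), and the peroxiredoxin gene Prdx4, which passes oxidizing equivalents to isomerases, from 53.0 ± 3.78 to 89.2 ± 14.0 (0.73 ± 0.15, adjusted p = 0.0153). Erp29 rose from 84.2 ± 6.85 to 121.8 ± 16.2, and the thioredoxin-like Txndc12 fell from 47.1 ± 1.61 to 33.99 ± 2.75. The remaining 2 called genes of the list, chosen after their values were seen, were Sdf2l1, a BiP-cycle factor (20.9 against 48.8), and Fkbp2. Genes of ER-associated degradation and the translocon had 0 called of 25 in limma, and 23 log2 fold changes above 0 (median 0.30). An unadjusted p below 0.05 was seen in 6 of the 25 and in 31.5% of all tested genes. Ssr4 and Ssr2, the most abundant, were at 247 ± 28.9 against 309.7 ± 68.5 and 153 ± 54.1 against 239.5 ± 69.1.

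Of 21 tested genes of unfolded protein response signalling, 1 was higher and 1 lower. Asns, an asparagine synthetase and ATF4 target, rose from 11.2 ± 2.55 to 18.1 ± 3.60 with overlapping groups (0.64 ± 0.18, adjusted p = 0.0478), and the transmembrane transcription factor gene Creb3l1 fell from 50.2 ± 10.9 to 26.5 ± 4.54 (-0.89 ± 0.18, adjusted p = 0.0136). The call of Asns held in 6 of 22 alternatives and that of Creb3l1 in 19. Among 27 tested heat shock factors and co-chaperones 2 were higher and 1 lower. The small heat shock gene Cryab, the lens and muscle alpha-B crystallin, rose from 5.19 ± 1.66 to 17.8 ± 8.94 and the HSP70 cofactor gene Bag2 from 8.91 ± 0.576 to 14.6 ± 3.00, while Fkbp5, a glucocorticoid- and progesterone-responsive HSP90 cofactor, fell from 2.05 ± 0.245 to 0.843 ± 0.25. Of 15 cytosolic chaperonin and prefoldin genes 0 were called in limma (4 at an unadjusted p below 0.05, against 31.5% of all tested genes). Cct5 was at 175 ± 6.11 against 179.9 ± 18.1 and Cct2 at 151 ± 5.33 against 147 ± 14.4. Of 14 mitochondrial folding genes only Hscb, a co-chaperone of iron-sulfur cluster assembly, was called, lower at 9.27 ± 1.49 against 6.19 ± 0.72.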

How the data were processed

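RNA of 3 control and 5 Smad2/3 cKO uterine epithelium libraries was primed with random and poly-dT primers and sequenced, per the labels' protocols. The submitters' processing notes name bcl2fastq 1.8.3, TopHat, Cufflinks and mm10. The deposited FPKM values, made by the authors per transcript for 34535 transcripts, were summed here per symbol, with 15 genes left out for a status other than OK. The deposited coverage signal entered no comparison. Values were scaled by median ratios over 9939 genes and tested with limma 3.58.1 (R 4.3.3, variance trend) on log2(scaled FPKM + 1), with Benjamini-Hochberg adjustment over 11315 genes. No read counts were used, so no count test was run. How wide the FPKM intervals in the files are gave an estimate of depth. The pseudocount of 1 understates the fold changes of low genes.

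Members and gene lists were chosen with earlier results of these data known. Values are named for every called member, the genes named apart, all Hsp90 and Pdia genes, the 4 most abundant members per compartment, Hspa1a and Hspa1b, and up to 4 called genes (or the 2 most abundant) per related list. The fit was tested on simulated data with independent noise per gene, which hold no shift shared by the genes of a library. Of 200 genes changed by 1 on the log2 scale it recovered 76%, and of 200 changed by 2 it recovered 97%. Changes between 0 and 1 were not simulated. The 22 alternatives changed the unit, filter, pseudocount, scaling, weights, added terms or libraries. Protein sequences were not used here.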

Additional observations from a re-analysis of the deposited data

Results flagged for a closer look

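Of 45 named genes checked among the 5 cKO libraries, 2 had a single library far from the rest, where chance gives about 1 in 20. Ddit3 was at 14.32 scaled FPKM in cKO 2 and listed at 0 in the other 4, and a listed 0 can be a failed estimate. Prdx4 was at 64.99 in cKO 4, against 91.47 to 101.1 in the others, a gap of 0.734 of the range (critical value 0.71), and still above all controls (49.3 to 56.9).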

How the results depend on the processing

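No paired analysis was possible because the labels give the libraries no shared replicate numbers. The median log2 fold change of the ER members stayed above 0 in all 22 alternatives (0.37 to 0.74). Members called higher, 5 as reported, numbered 2 with TPM, 18 with array weights, 8 with the immediate early level as a term (chosen after seeing the data), 2 without a filter, 3 without scaling, 3 with quantile normalization, 0 with stromal and muscle marker levels in the model, 2 with title series as a term and 1 without both cKO libraries of the other series. Leaving out 1 library gave 0 to 6. Members called lower, 3 as reported, numbered 6 with TPM, 8 with array weights, 0 with the mitosis level as a term, 6 with quantile normalization, and 0 with the stromal and muscle term, with title series as a term and without both libraries. Leaving out 1 library gave 0 to 3. Both counts were 0 without control 3. Calls over all genes were 823 higher and 790 lower as reported, 1793 and 1733 with array weights, and 510 and 1662 with TPM. They were 358 and 304 with the stromal and muscle term, and 242 and 176 without control 3. With title series as a term they were 802 and 648, and without both libraries 734 and 588. The immediate early term gave 847 and 827, and the mitosis term 618 and 632. Without a filter there were 652 and 816 of 18132 tested genes, without scaling 642 and 842, and with quantile normalization 763 and 984. Leaving out 1 library gave 238 to 928 higher and 176 to 887 lower. The cytosolic median, -0.09 as reported, was -0.3022 with TPM, where the median of all tested genes was -0.20. It was -0.0318 with a filter at FPKM 5, -0.02 with the mitosis term and -0.1271 to 0.0182 leaving out 1 library, above 0 only without control 1.

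Some uncalled members turned direction. Hsp90ab1 became -0.0765 with TPM and -0.2022 with quantile normalization, and Hspa9 became -0.1209 and -0.1178 with these and -0.0531 with the mitosis term. With that term Hspa8 became 0.0153, Hspa1b 0.1252, Hspa1a 0.2397 and Dnajc24 0.0377. Leaving out 1 library gave Hspa1b -0.4249 (without control 3) to 0.0402 (without control 1), Hspa1a -0.4162 to 0.0952 without the same libraries, Dnajc8 -0.0873 (without control 1) to 0.0398 (without cKO 4; 0.0004 without control 2, 0.0075 without control 3), Dnajc9 -0.3054 (without control 1) to 0.0146 (without control 2), and Dnajc24 -0.1503 to 0.032 without the same libraries. The cause was not tested. With 3 control libraries, 1 of them apart, precision is limited.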
